A study of Mus musculus with 6 samples.

Results

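The unfolded protein response was followed through 10 of its genes in cultured fibroblasts of the mouse colon, the cells that build the connective tissue of the gut wall. They are the chaperones Hspa5, Hsp90b1 and Calr, the co-chaperones Dnajb9 and Sdf2l1, the disulfide isomerases Pdia4 and Pdia6, the degradation adaptor Herpud1 and the transcription factors Xbp1 and Atf6. They were chosen by name as sensors, regulators and chaperones of the endoplasmic reticulum (ER), and all 10 were found among the 38896 gene symbols of the count table. The cells came from distal colons at 6 weeks of age, were passaged 2 times and then spent 24 h in control conditioned medium (group control) or in inflammatory conditioned medium, taken here to be the group labelled DSS. DSS commonly stands for dextran sulfate sodium, which inflames the colon when given in drinking water. Mice 1716, 1717 and 1718 were each the source of a control culture and a DSS culture, so n = 3 in both groups and the libraries pair by animal. The labels enter control and DSS under genotype, name no strain, allele or transgene, and leave the making of the inflammatory medium undescribed.

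Proteins bound for secretion fold in the ER, and a fibroblast sends large amounts of collagen through it. When unfolded protein builds up, sensors in the ER membrane respond: Ire1 (gene Ern1) splices the Xbp1 mRNA in the cytosol, Atf6 is cut in the Golgi to free a transcription factor, and Perk (gene Eif2ak3) slows translation and favours translation of Atf4. Spliced Xbp1 and cut Atf6 turn on chaperones, isomerases and genes that export misfolded protein for degradation, while Atf4 turns on genes of amino acid supply. All 10 genes are best known as parts or targets of this circuit.

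Several of these genes carry the ER stress response element, ERSE, to which Atf6 binds together with NF-Y. The promoter windows below run from 250 bases before to 50 bases after the gene start (RefSeq, GRCm38.p6), 9 of the 10 genes had one, and Atf6 had none. All motifs were searched on both strands. The ERSE was searched as CCAAT and CCACG with 9 free bases between them, and was found in 4 of the 9 windows, those of Hspa5, Hsp90b1, Calr and Pdia6, against 0.119% of the 32851 windows of all genes. A relaxed form, with CCNNG as the second part, was found in the same 4 windows and in 1.35% of all windows. ERSE-II (ATTGG and CCACG with 1 free base between them, its second part shared with the ERSE) was found in the window of Herpud1 and in 0.0365% of all windows. The composite element of Atf4 and C/EBP factors (TGATGNAA) was also found in that of Herpud1, and in 3.97% of all windows. The core TGACGTGG of the element bound by Xbp1 was in none of the 9, and in 0.676% of all. The matches are shown because they set Hspa5, Hsp90b1, Calr and Pdia6 apart from Herpud1 by sequence. The genes were chosen as known parts or targets of this response, so matches in their windows are no independent finding. The shares of all windows tell only how rare each motif is. The windows of Pdia4, Dnajb9, Sdf2l1 and Xbp1 held no match to any of these motifs. No match of one motif overlapped a match of another in these lines. Capitals mark the fixed letters of each motif, read 5′ to 3′ on the strand that carries it.
Hspa5, ERSE at chr2:34772025-34772043: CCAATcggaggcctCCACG
Hsp90b1, first ERSE at chr10:86705638-86705656: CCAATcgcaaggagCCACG
Hsp90b1, second ERSE at chr10:86705533-86705551, on the opposite strand to the gene: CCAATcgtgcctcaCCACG
Calr, ERSE at chr8:84847075-84847093, on the opposite strand to the gene: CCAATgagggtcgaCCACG
Pdia6, ERSE at chr12:17266491-17266509: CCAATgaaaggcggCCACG
Herpud1, ERSE-II at chr8:94386377-94386387: ATTGGgCCACG
Herpud1, composite element at chr8:94386317-94386324, on the opposite strand to the gene: TGATGcAA

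The windows of Hspa5 and Herpud1 are given whole, as those of a classic target of Atf6 and of the gene with the largest change here. The Hspa5 window lies on the plus strand at chr2:34771840-34772139 and the Herpud1 window on the plus strand at chr8:94386179-94386478. Capitals mark the fixed letters of the same motifs, the composite element of Herpud1 reading here as its reverse complement. A match describes letters only, and no binding was measured.
Hspa5: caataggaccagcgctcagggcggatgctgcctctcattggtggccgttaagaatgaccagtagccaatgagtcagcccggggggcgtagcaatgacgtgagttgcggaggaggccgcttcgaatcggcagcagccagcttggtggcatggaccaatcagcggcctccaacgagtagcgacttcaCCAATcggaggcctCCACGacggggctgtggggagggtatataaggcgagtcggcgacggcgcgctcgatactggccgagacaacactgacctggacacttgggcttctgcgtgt
Herpud1: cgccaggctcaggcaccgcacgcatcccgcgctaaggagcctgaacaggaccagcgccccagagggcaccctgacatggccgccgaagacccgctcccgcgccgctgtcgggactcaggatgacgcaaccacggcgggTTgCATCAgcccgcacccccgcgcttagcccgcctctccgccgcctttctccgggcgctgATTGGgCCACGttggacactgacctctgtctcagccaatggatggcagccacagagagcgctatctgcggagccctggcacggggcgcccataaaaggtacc

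The libraries held 17293680 to 19482938 estimated counts, and levels are given as CPM, the counts of a gene scaled to a common library size with TMM factors. Group levels are means ± SD (n = 3), differences are DSS over control on the log2 scale ± SE, and a gene is called when its adjusted p is under 0.05 by edgeR's quasi-likelihood test with Benjamini-Hochberg adjustment over 19869 genes. Of all these genes 7.37% were called higher and 5.91% lower, and 13.3% in either direction. Marker sums are on CPM of the library total, without TMM factors. Fibroblast markers were detected for 9 of 9 genes, at a summed 37830.1 to 43341 CPM in control and 20452 to 25037 CPM in DSS. Macrophage markers were detected for 7 of 7, at 1391 to 2024 CPM and 843 to 1301 CPM. Smooth muscle markers were detected for 4 of 4, at 1311 to 1394 CPM and 1018 to 1119 CPM, and markers of enteric glia for 4 of 4, at 94.2 to 328 CPM and 60.4 to 265 CPM. Markers of goblet cells, which carry an ER enlarged for mucus, summed to 8.07 to 12.5 CPM and 2.93 to 3.58 CPM, with Tff3 and Agr2 at 0 in every library. Those of epithelium, endothelium and B or plasma cells summed to at most 17.4 CPM in any library. The fibroblast, macrophage, smooth muscle, goblet and epithelial sums were lower in DSS with no overlap, while the glial, endothelial and B or plasma cell sums overlapped, and the part of other cells in the differences below was not tested. In cultures measured in bulk, fewer cells of a type and less RNA per cell cannot be told apart.

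Herpud1 and Xbp1 fell in inflammatory medium, while the other 8 genes did not pass the threshold by edgeR. Not passing does not show an unchanged level, since the interval of the fit for Hspa5 ran from 0.854-fold to 1.33-fold. Of the 10 genes 2 were called lower and none higher by edgeR, where 2 were higher at an unadjusted p under 0.05. Read against the background of 5.91%, the lower calls rest on 2 genes in a short list. With the mouse as a block, the fit also called Calr and Pdia4 higher, so that 2 of 10 were higher and 2 lower, beside 12.3% and 12.7% of all genes. Calr was also called by DESeq2 (1 higher). On simulated data without an effect of the mouse, the share of false calls exceeded 0.05 in both edgeR fits. It was larger with the block, so calls made only with the block, here and below, are the less certain ones. The median log2 fold change of the 10 was 0.04, against 0.01 over all genes tested.

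**Figure D1:**
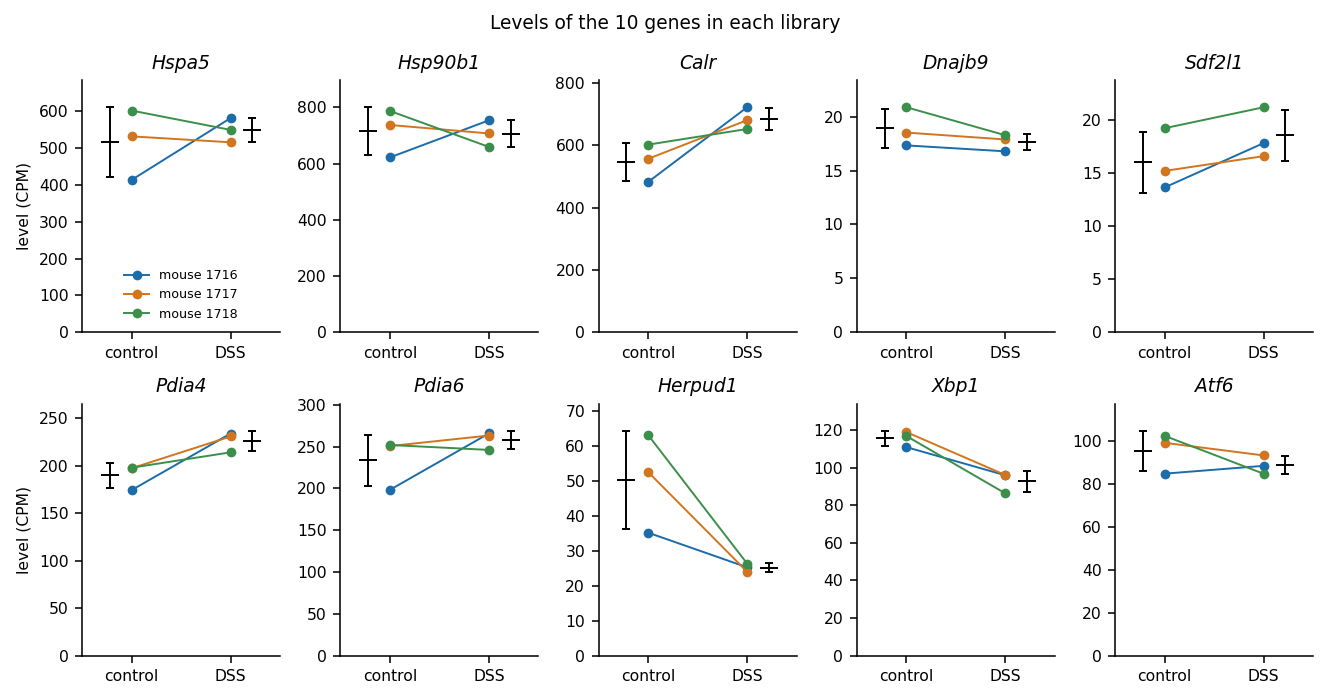
Level in CPM of each of the 10 genes in the 3 control and 3 DSS libraries, with a line joining the libraries of a mouse and black bars for the mean ± SD of each group. Herpud1 and Xbp1 are lower in DSS in all 3 mice with no overlap, Calr and Pdia4 are higher in all 3 with no overlap, and the groups of the other 6 genes overlap.

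Hspa5, also called BiP, is the HSP70 chaperone that holds unfolded chains and keeps the stress sensors silent while bound to them. Its level was 414, 532 and 602 CPM in the control libraries of mice 1716, 1717 and 1718 and 582, 516 and 549.6 CPM in their DSS libraries. It was thus higher in DSS in mouse 1716 and lower in the other two mice, and the groups overlapped. The log2 fold change was 0.09 ± 0.14 (edgeR adjusted p = 0.721), and the 95% interval of the fit ran from 0.854-fold to 1.33-fold. Without the control library of mouse 1716 the value turned to -0.05, and without both libraries of that mouse to -0.09. Hsp90b1, the HSP90 of the ER (Grp94), is needed for the folding of integrins and Toll-like receptors. It stood at 622, 737 and 787 CPM in control and 754, 707 and 659 CPM in DSS. Its direction likewise differed between mice, with a log2 fold change of -0.02 ± 0.11 (edgeR adjusted p = 0.94, interval 0.832-fold to 1.17-fold). The sign turned in 5 of the 9 leave-out fits, reaching 0.093 without mouse 1718.

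Calr, calreticulin, is a calcium-binding chaperone that holds glycoproteins through their sugars (NCBI Gene 12317, chr8:84842088-84846931, GRCm38.p6). It stood at 482, 556 and 602 CPM in control and 722, 680.3 and 652 CPM in DSS. Every DSS library lay above every control library, and the difference was smallest in mouse 1718. The log2 fold change was 0.32 ± 0.10, or 1.25-fold (interval 1.07-fold to 1.47-fold), and missed the threshold (edgeR adjusted p = 0.0719). With the mouse as a block it passed (0.33 ± 0.09, edgeR adjusted p = 0.0368), as it did with DESeq2 (adjusted p = 0.0458) and with scaling by library total alone (edgeR adjusted p = 0.0498). None of the 9 leave-out fits called it (edgeR adjusted p = 0.0752 to 0.305). Groups that do not overlap were seen for 4 of the 10 genes and for 34.2% of all genes tested.

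The disulfide isomerases form and shuffle the sulfur bridges of secreted proteins. Pdia4 (NCBI Gene 12304, chr6:47796141-47813512) stood at 174, 197 and 198 CPM in control and 234, 231 and 214 CPM in DSS. All DSS libraries lay above all control libraries. The log2 fold change was 0.25 ± 0.08, or 1.19-fold (interval 1.05-fold to 1.35-fold), and missed the threshold (edgeR adjusted p = 0.0747). It passed with the mouse as a block (0.25 ± 0.07, edgeR adjusted p = 0.0392) and with scaling by library total alone (edgeR adjusted p = 0.0483). Pdia6, an isomerase that also binds Ire1, stood at 198, 251 and 252 CPM in control and 266, 263 and 246 CPM in DSS. Its groups overlapped, and its log2 fold change of 0.15 ± 0.10 did not pass (edgeR adjusted p = 0.413, interval 0.935-fold to 1.31-fold). Part of Pdia6 lies over Atp6v1c2, part of Hspa5 over Rabepk and part of Pdia4 over Mir704. Atf6 likewise shares its position with Gm23523, Gm25235, Gm29733 and Gm9929. The sources used here do not say whether the counting used strand.

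The co-chaperones were among the lowest of the 10 genes. Dnajb9, a J-domain protein that brings Hspa5 to Ire1 and to misfolded chains, is a widely used target of spliced Xbp1. It stood at 17.3, 18.5 and 20.9 CPM in control and 16.8, 17.9 and 18.3 CPM in DSS. The difference of -0.10 ± 0.10 on the log2 scale was negative in all 3 mice but did not pass (edgeR adjusted p = 0.555, interval 0.80-fold to 1.09-fold). Sdf2l1, which works with Hspa5 and J-domain proteins to keep chains soluble, stood at 13.6, 15.2 and 19.2 CPM in control and 17.8, 16.6 and 21.2 CPM in DSS. It was higher in all 3 mice while the groups overlapped, with a log2 fold change of 0.21 ± 0.15 (edgeR adjusted p = 0.412, interval 0.907-fold to 1.48-fold). Neither gene passed with the block (edgeR adjusted p = 0.40 and 0.108).

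Herpud1 showed the largest difference of the 10 genes. It encodes a membrane protein that gathers the machinery of ER-associated degradation, and its transcript is known to respond to several branches of the stress response (NCBI Gene 64209, chr8:94386429-94395371). It stood at 35.1, 52.4 and 63.0 CPM in control and 25.2, 24.0 and 26.3 CPM in DSS. The control libraries were spread widely while the DSS libraries lay close together, and each DSS library was below each control library. The log2 fold change was -0.995 ± 0.19, or 0.502-fold (interval 0.366-fold to 0.687-fold; edgeR adjusted p = 0.0156). The difference was -0.48 in mouse 1716, -1.13 in mouse 1717 and -1.26 in mouse 1718. The call was lost without control 1717 (edgeR adjusted p = 0.0609), DSS 1717 (0.0539), mouse 1717 (0.169) or mouse 1718 (0.0929), with log2 fold changes of -0.96, -0.96, -0.93 and -0.84.

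By the estimated division of reads, the difference in Herpud1 lay mainly in 1 of its 2 RefSeq transcripts. On CPM of the library total, without TMM, NM_022331 stood at 32.8, 46.3 and 56.4 in control and 20.05, 20.01 and 21.6 in DSS. The other transcript, NM_001357205, stood at 2.73, 5.27 and 5.61 in control and 5.50, 3.52 and 5.09 in DSS, with overlap. Its share of the Herpud1 counts was 8.99% ± 1.26 in control and 18.5% ± 3.31 in DSS (SD, n = 3; exact two-sided permutation p = 0.1, the smallest that 3 against 3 allows), and was larger in DSS in 3 of 3 mice. It rested on 53.3 to 99.5 estimated counts per library, and the division of reads between transcripts is an estimate. Hspa5 likewise had 2 transcripts, and the share of NM_022310 was 22.5% ± 2.03 in control and 18.7% ± 0.605 in DSS (SD, n = 3; exact permutation p = 0.1), smaller in DSS in 3 of 3 mice. Over the transcripts of the 10 genes the shares of 5 genes with more than 1 transcript were compared, and no p could fall below 0.1.

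**Figure D2:**
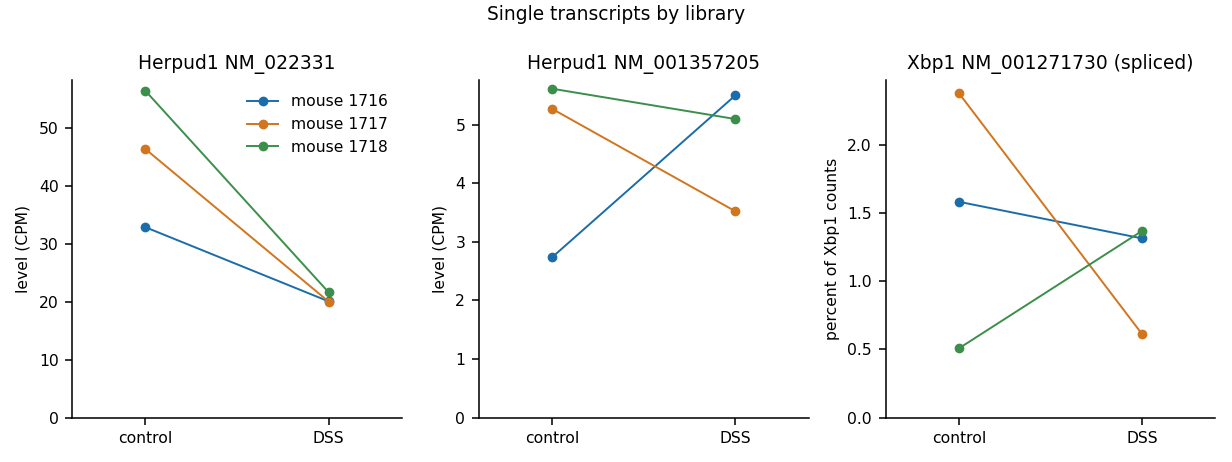
Level of the 2 Herpud1 transcripts (CPM of the library total) and share of the spliced form among Xbp1 counts (percent) in each library, with lines joining the libraries of a mouse. The first Herpud1 transcript goes from 32.8 to 56.4 CPM in control to 20.01 to 21.6 CPM in DSS, while in the other panels the groups overlap.

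Xbp1, the transcription factor of the Ire1 branch, also fell (NCBI Gene 22433, chr11:5520641-5525993). It stood at 111, 119 and 117 CPM in control and 95.9, 96.0 and 86.3 CPM in DSS. Every DSS library lay below every control library, and the spread within each group was small. The log2 fold change was -0.32 ± 0.07, or 0.803-fold (interval 0.717-fold to 0.899-fold; edgeR adjusted p = 0.0248). The call was lost in 7 of the 9 fits that left out data. Without control 1717 or 1718 the edgeR adjusted p was 0.0986 and 0.085, and without DSS 1717 or 1718 it was 0.0504 and 0.0686. Without mouse 1716, 1717 or 1718 it was 0.0559, 0.171 and 0.16, and over all 9 fits it ran from 0.0387 to 0.171 with the direction kept.

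Xbp1 mRNA yields its active factor only after Ire1 has cut out a stretch of 26 bases. In the GENCODE transcript of Xbp1, 2 pairs of the loop motif that Ire1 cuts (searched as CNGCNG followed by A, C or G) stood 26 bases apart. Only the pair in exon 4 lengthened the reading frame when the stretch between its cuts was removed, from 267 to 371 codons. The coding sequence around it at chr11:5524261-5524322 (plus strand, GRCm38) is shown because the spliced share below depends on reads over it, with the removed 26 bases (5524279 to 5524304) in capitals.
Xbp1: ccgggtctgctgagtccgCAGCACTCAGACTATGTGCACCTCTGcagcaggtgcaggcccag

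Of the 2 RefSeq mRNAs of Xbp1, NM_001271730 was taken to be the spliced form from general knowledge, since its sequence was not read here. The reads assigned to it were few. Their share of Xbp1 counts was 1.58% in control 1716 (95% Wilson interval 1.15 to 2.22%), 2.38% in control 1717 (1.83 to 3.13%) and 0.507% in control 1718 (0.267 to 0.901%). In DSS the shares were 1.31% (0.866 to 1.97%), 0.613% (0.321 to 1.09%) and 1.37% (0.908 to 2.11%) in the same order of mice. The groups overlapped and the mice disagreed in direction, with 1 of 3 higher in DSS. The mean was 1.49% ± 0.939 in control and 1.10% ± 0.421 in DSS (SD, n = 3; exact two-sided permutation p = 0.5). The spliced form rested on 10.3 to 51.6 of 1516 to 2188 estimated counts per library. The intervals do not cover the assignment of reads that do not cross the splice site. They treat every Xbp1 count as able to tell the forms apart, which only reads over the removed stretch can do, so they are too narrow. The intervals of control 1717 and control 1718 did not overlap, but for that reason this does not show a spread beyond counting error. Atf6, the sensor that is cut in the Golgi, stood at 84.6, 98.96 and 102 CPM in control and 88.3, 93.1 and 84.6 CPM in DSS. Its groups overlapped, and its log2 fold change of -0.10 ± 0.09 did not pass (edgeR adjusted p = 0.492, interval 0.808-fold to 1.07-fold).

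**Figure D3:**
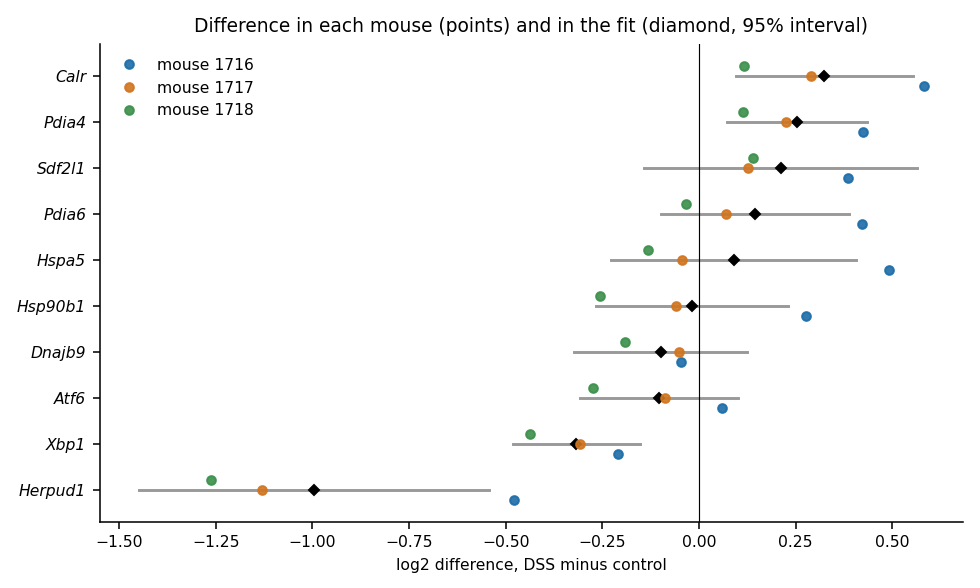
Log2 difference between the DSS and control library of each mouse (coloured points) for the 10 genes, with the fitted log2 fold change (diamond) and its 95% interval (line). In all 10 genes the point of mouse 1716 lies farthest to the right, from -0.48 for Herpud1 to 0.58 for Calr.

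The 3 mice differed among themselves in a way the 10 genes shared. Control 1716 was the lowest control library for 10 of 10 genes, as it was for 35.1% of all genes tested, and control 1718 was the highest for 9 of 10, against 35.2% of all genes. With its sign kept, the difference of DSS minus control had its highest value in mouse 1716 for 10 of 10 genes (for Herpud1 and Xbp1, the smallest fall of the 3 mice), against 36.3% of all genes with a difference in each mouse. For Dnajb9 the lead was small (-0.047 against -0.051 in mouse 1717). Since the control level is subtracted in each difference, this count partly restates that of the lowest control library. The median difference of the 10 genes was 0.33 in mouse 1716, -0.05 in mouse 1717 and -0.16 in mouse 1718, against 0.01, -0.00066 and -0.0044 over all genes tested. This was not particular to the 10 genes. Among the lists described below, the Perk and Atf4 branch had medians of -0.41, -0.69 and -0.93 in the same order of mice. The median was highest in mouse 1716 in every list but the cytosolic heat shock genes (0.04, 0.14 and 0.21). Atf5, Asns and Sesn2 of the Perk and Atf4 branch also stood lowest in control 1716 and highest in control 1718, while Dnajc10 ran the other way. Relative to the mean, the control libraries were more spread than the DSS libraries for 9 of 10 genes, against 44.2% of all genes. These counts were made after the values were seen and have no test. The glial marker sum ran the other way among controls, at 328, 225 and 94.2 CPM in mice 1716, 1717 and 1718, and the fibroblast sum the same way, at 37830.1, 40145 and 43341 CPM, and their part in the spread was not tested.

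Levels of different genes were compared per kilobase of transcript, with the length of the GENCODE transcript matched to each gene's most counted RefSeq transcript. In control the order ran from Hsp90b1 (253 ± 30.04 CPM per kb, SD, n = 3), Calr (250 ± 27.7) and Hspa5 (197 ± 36.4) through Pdia6 (107 ± 14.1), Pdia4 (79.2 ± 5.61), Xbp1 (54.3 ± 1.96) and Herpud1 (25.7 ± 7.21) to Sdf2l1 (14.4 ± 2.60), Atf6 (13.2 ± 1.29) and Dnajb9 (7.68 ± 0.731). The ranges of the first 3 overlapped from neighbour to neighbour, as did those of Sdf2l1 and Atf6, while the other neighbours did not overlap. In DSS Calr stood alone at the top with 314 ± 16.1 CPM per kb, above Hsp90b1 at 250.2 ± 16.7 in every library. Herpud1, at 12.9 ± 0.599 CPM per kb, had moved below Sdf2l1 (16.7 ± 2.15) and overlapped Atf6 (12.2 ± 0.59).

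**Figure D4:**
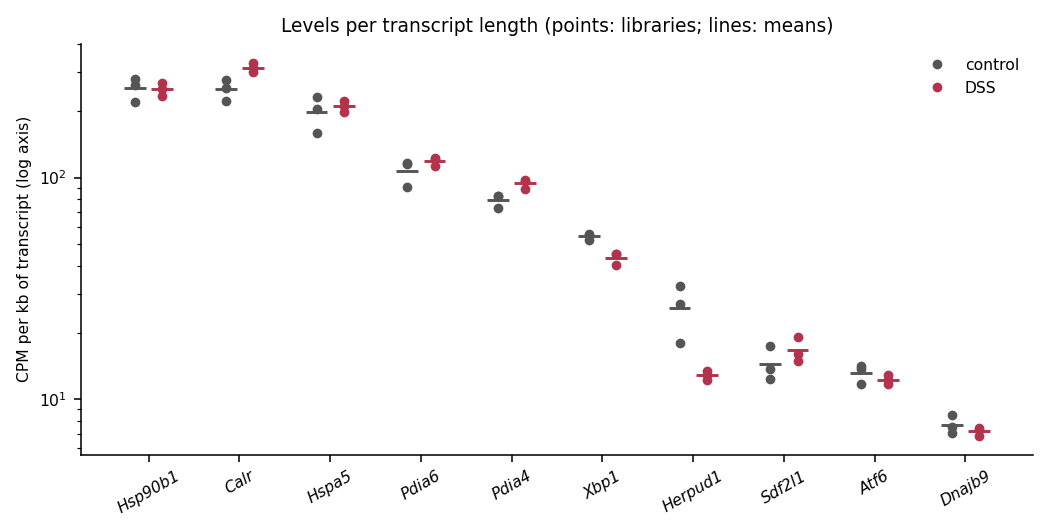
Level per kilobase of transcript on a log axis for the 10 genes, with points for libraries and lines for the means of 3 control and 3 DSS libraries. Hsp90b1, Calr and Hspa5 lie at about the same height in control, and Herpud1 drops from above to below Sdf2l1 in DSS.

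The other ER folding factors fell more often than they rose. Of 26 tested, 7 were lower and 1 higher by edgeR, and 18 did not pass, beside 5.91% lower and 7.37% higher over all genes. The median log2 fold change was -0.13 against 0.01 over all genes. P4hb, the main disulfide isomerase and a subunit of collagen prolyl hydroxylase, fell on average to 503 ± 27.9 CPM from 793 ± 104 CPM (-0.66 ± 0.11 on the log2 scale, edgeR adjusted p = 0.00914). Pdia5, another isomerase, fell from 45.0 ± 3.74 to 29.6 ± 3.49 CPM (-0.60 ± 0.11), while Pdia3, the isomerase that works with calreticulin, stood at 452 and 500.1 CPM and did not pass (edgeR adjusted p = 0.277; named after its value was seen). The gene that rose was Dnajc10, a reductase that opens disulfide bridges, from 186 ± 3.09 to 242.5 ± 17 CPM (0.38 ± 0.07, edgeR adjusted p = 0.0138). The other genes that fell were Dnajc3, Ero1a, Txndc5, Erp29 and Tmx1. With the block 9 fell and 2 rose, beside 12.7% and 12.3% of all genes. The number that fell was 1 without control 1717, 3 without control 1718, 4 without DSS 1716 or DSS 1718, 3 without DSS 1717, and 0 without mouse 1717 or 1718, and none rose without control 1717 or 1718 or mouse 1717 or 1718.

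Genes of ER-associated degradation, which draws misfolded chains back to the cytosol, were mixed. Of 23 tested, 5 were lower (Derl1, Edem1, Selenos, Ube2j1 and Dnajb14) and 1 higher (Edem2), beside 5.91% and 7.37% of all genes, with a median of -0.05. Selenos, a selenoprotein of the export complex, fell from 28.3 ± 2.42 to 18.8 ± 1.34 CPM (-0.59 ± 0.10, edgeR adjusted p = 0.00856). Edem1, which picks out misfolded glycoproteins, fell from 187 ± 3.10 to 143 ± 9.70 CPM (-0.38 ± 0.07), and Ube2j1, a ubiquitin-conjugating enzyme of this pathway, fell from 70.9 ± 1.76 to 55.0 ± 3.83 CPM (-0.37 ± 0.07). Edem2, which begins the trimming of mannose, rose from 29.6 to 46.3 CPM (0.65 ± 0.13, edgeR adjusted p = 0.0156; named as the single rise). With the block 7 fell and 2 rose, beside 12.7% and 12.3% of all genes. The number that fell was 1 without control 1717 or control 1718, 3 without any 1 DSS library or mouse 1716, and 0 without mouse 1717 or 1718, and none rose without control 1716, control 1718 or mouse 1718, and 2 without DSS 1716.

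Falls were also seen in a list of genes of ER translocation and signal peptide cleavage. It holds genes of the channel that takes new chains into the ER, of the targeting machinery and of the signal peptidase. It also holds Sec24d and Sec23b, which are not parts of the channel. Of 25 tested, 8 were lower and none higher by edgeR, beside 5.91% and 7.37% of all genes, with a median of -0.24, and at an unadjusted p under 0.05 these numbers were 15 and 0. DESeq2 and limma-voom each called 8 lower and none higher. Sec61a1 and Sec61b, parts of the channel, Srp54a and Srprb of the targeting machinery, and all 4 genes of the translocon-associated complex, Ssr1 to Ssr4, made up the 8. Ssr1 fell from 204 ± 1.95 to 138 ± 6.70 CPM (-0.57 ± 0.06, edgeR adjusted p = 0.00241). Ssr2 fell from 71.6 ± 5.58 to 45.5 ± 1.42 CPM (-0.65 ± 0.08) and Ssr4 from 43.0 ± 1.23 to 30.1 ± 1.82 CPM (-0.52 ± 0.07). With the block 11 fell, beside 12.7% of all genes. The number that fell was 5 without control 1717, 0 without mouse 1717 and 2 without mouse 1718.

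Of the 10 other sensors and membrane-bound factors, 2 were lower and none higher by edgeR (1 was higher at an unadjusted p under 0.05), beside 5.91% and 7.37% of all genes, with a median of -0.18. With the block 3 were lower and 1 higher, beside 12.7% and 12.3% of all genes. Creb3l1, a factor freed from the membrane like Atf6 and known for driving collagen genes, fell from 90.2 ± 21.7 to 41.1 ± 5.76 CPM (-1.13 ± 0.18, edgeR adjusted p = 0.00716, and 0.064 without mouse 1717). Its relative Creb3l2 fell from 240.1 ± 19.3 to 150.0 ± 10.4 CPM (-0.68 ± 0.09, edgeR adjusted p = 0.00357), and 9 of 9 fits that left out data called it. Traf2, an adaptor of Ire1, stood at 35.7 ± 1.70 and 44.4 ± 4.46 CPM and passed only with the block among the fits made (edgeR adjusted p = 0.0583, and 0.00958 with the block). The sensors themselves, Ern1 at 41.8 and 37.3 CPM and Eif2ak3 at 34.3 and 28.4 CPM, did not pass (edgeR adjusted p = 0.289 and 0.16; named after their values were seen), and Eif2ak3 passed with the block (0.0226). DESeq2 and limma-voom each called 2 lower and none higher.

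Among the 7 lists the median farthest from 0 was that of the Perk and Atf4 branch. Of 14 genes 7 fell and 1 rose, beside 5.91% and 7.37% of all genes, with a median of -0.67. Atf5, a transcription factor of this branch, fell from 132 ± 44.9 to 39.0 ± 2.88 CPM (-1.75 ± 0.22, edgeR adjusted p = 0.00367). Asns, which makes asparagine, fell from 110.3 ± 39.8 to 30.3 ± 3.36 CPM (-1.86 ± 0.26) and Sesn2, a restraint on growth signalling, fell from 41.4 ± 10.1 to 20.5 ± 0.58 CPM (-1.02 ± 0.17). Atf4 itself, Trib3, Chac1 and Ddit4 also fell, and Cebpb rose. The 6 that did not pass were Ddit3 (edgeR adjusted p = 0.0788), Atf3 (0.718), Ppp1r15a (0.719), Ppp1r15b, Nupr1 and Eif2s1. The activity of Perk was not measured, and its part in these falls was not tested. As for Herpud1, the fall was smallest in mouse 1716 in Atf5 (-1.19, against -1.73 and -2.19), Asns (-0.97, against -2.03 and -2.39) and Sesn2 (-0.64, against -1.04 and -1.29). The block gave 8 lower and 1 higher, beside 12.7% and 12.3% of all genes. DESeq2 called 8 lower and limma-voom 5. The number that fell was 9 without control 1716 or mouse 1716, and 5 to 7 without any other 1 library. It was 0 without mouse 1717 and 1 without mouse 1718. Cebpb was called neither without any 1 control library, DSS 1717 or DSS 1718, nor without mouse 1717 or 1718.

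Chaperones outside the ER were counted in the same way. Of 20 cytosolic heat shock genes 3 were higher and none lower by edgeR (6 and 2 at an unadjusted p under 0.05), beside 7.37% and 5.91% of all genes, with a median of 0.15. Hsph1, a nucleotide exchange factor for HSP70, rose from 40.7 ± 2.30 to 87.6 ± 21.0 CPM (1.10 ± 0.17, edgeR adjusted p = 0.00704). Hspa8, the constitutive HSP70 of the cytosol, rose from 825 ± 60.7 to 1170.0 ± 97.7 CPM (0.50 ± 0.10) and Hspa4l from 55.0 ± 9.03 to 85.3 ± 14.0 CPM (0.63 ± 0.15). With the block 6 rose, as with DESeq2 and the block, and none fell, beside 12.3% and 12.7% of all genes. Limma-voom called 3 higher, DESeq2 4, and neither called any lower. The number that rose was 1 without control 1718, 2 without control 1717, DSS 1716 or DSS 1718, and 0 without mouse 1717 or 1718. Among 12 mitochondrial chaperones and proteases the protease Afg3l2 rose, from 58.4 ± 2.37 to 104 ± 16.4 CPM (0.83 ± 0.11, edgeR adjusted p = 0.00444), and the protease Lonp1 fell, from 80.0 ± 20.8 to 45.9 ± 2.41 CPM (-0.80 ± 0.18). Hspe1, the cofactor of Hspd1, stood at 24.3 and 28.7 CPM and passed with the block (edgeR adjusted p = 0.0894, and 0.0446 with the block). These 1 higher and 1 lower of 12 lie near the 7.37% and 5.91% of all genes, and the median of this list was 0.03. With the block 3 rose and 2 fell, beside 12.3% and 12.7% of all genes. The second fall with the block was that of Hspa9, the mitochondrial HSP70, at 206 and 140.4 CPM (-0.55 ± 0.20, edgeR adjusted p = 0.112, and 0.013 with the block; named after its values were seen). Afg3l2 was not called without mouse 1718, and Lonp1 was called in 2 of 9 fits that left out data, those without control 1716 and without mouse 1716, where 2 genes fell.

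**Figure D5:**
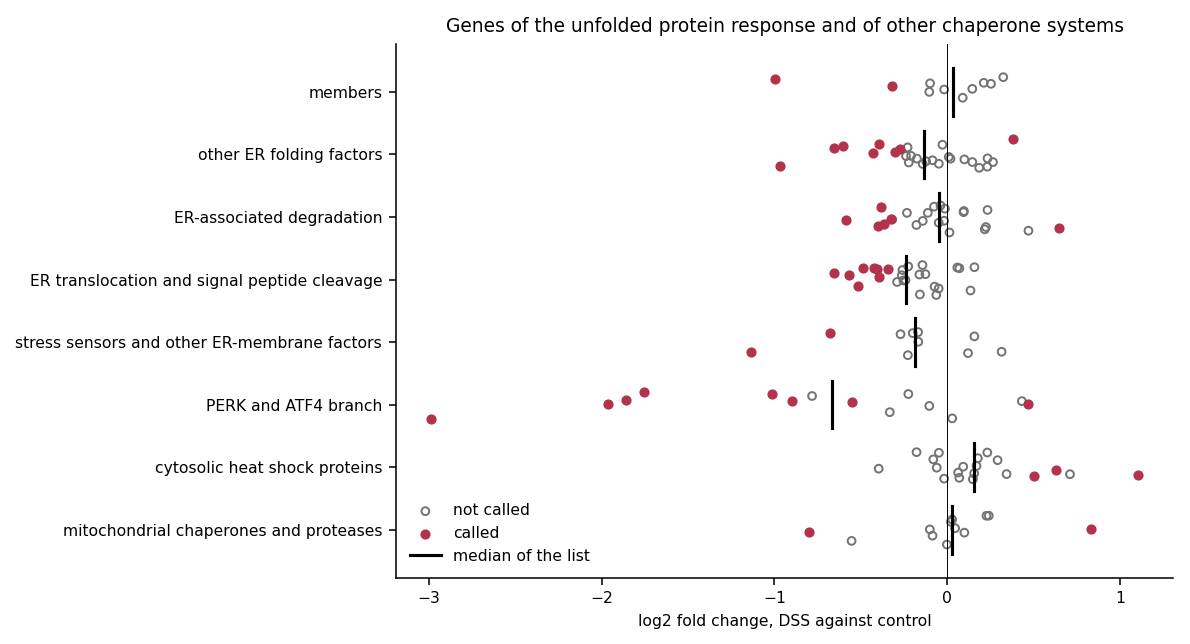
Log2 fold change of DSS against control for the 10 genes (members) and for each gene of 7 lists, with filled points for genes called by edgeR and a bar at the median of the list. The medians run from -0.67 for the Perk and Atf4 branch to 0.15 for cytosolic heat shock genes, and that of the 10 genes lies at 0.04.

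The genes whose level followed Hspa5 most closely over the 6 libraries were sought among 10201 other genes of at least 10 CPM. They were Tmem106a (Pearson r = 0.978), Acbd6 (0.976), Prpf31 (0.975), Rfxank (0.975) and Mbd5 (0.97), the 10 genes themselves being left out of the search. Each was low beside Hspa5, at 12.8 to 50.9 CPM in control, and none was called. With 6 libraries and so many genes searched, values this high describe the search and carry no test.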

How the data were processed

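Total RNA was depleted of ribosomal RNA, made into directional libraries and sequenced, per the labels' protocols. The authors deposited estimated counts for 120299 RefSeq transcripts, with no scaling. The submitters' processing notes name kallisto and the builds GRCm38 and mm10, and the sources used here do not give its version or settings. Here estimated counts were summed per gene symbol, rounded to whole numbers and passed through filterByExpr of edgeR (at least 10 counts, 15 in total). TMM factors set the scale, and the quasi-likelihood test of edgeR used only the group as a term. The SE is the log2 fold change divided by the square root of F. Depth was 17293680 to 19482938 estimated counts per library. The 10 genes, the lists and the rule for named genes (all 10, 3 genes with the smallest p per list, 5 genes most like Hspa5) were chosen with earlier results of these data known. The replicates are separate mice, and same-numbered libraries come from the same animal (r of their deviations from the group means over genes was 0.35, 0.21 and 0.46). For a control and a DSS library of different mice r ran from -0.36 to 0.02. Deviations from a mean of 3 libraries are tied to one another, so these r are not independent. Alternatives were the mouse as a block, DESeq2, limma-voom, other scaling, no filter, ribosomal RNA left out, and libraries or mice left out. Both edgeR fits were tested on simulated data with known changes and no effect of the mouse, where the share of false calls exceeded the threshold of 0.05 in each fit and was larger with the block. The software was edgeR 4.0.16, DESeq2 1.42.0 and limma 3.58.1 in R 4.3.3, and Python 3.11.15.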

Additional observations from a re-analysis of the deposited data

How the results depend on the processing

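With the mouse as a replicate block edgeR called 2447 genes higher and 2518 lower in place of 1465 and 1174, and 2 of the 10 genes (Calr and Pdia4) higher in place of 0. Scaling by library total alone also gave 2 higher, and DESeq2 without and with the replicate block gave 1. Leaving out a library or a mouse gave 378 to 1310 genes higher and 185 to 1108 lower, with 0 of the 10 genes higher in each and 0 to 2 lower. Of the 10 genes, Hspa5 (0.09) changed sign in 2 such fits (-0.05002 and -0.08995) and ran from -0.08995 to 0.2141 over all 9. Hsp90b1 (-0.02) changed sign in 5 (0.0028, 0.055, 0.028, 0.003 and 0.093) and ran from -0.1578 to 0.093, and neither was called in any fit. The other 8 kept their direction in all 17 alternatives. The difference in the spliced share of Xbp1 was -0.39 percentage points and ran from -0.88 to 0.05 when 1 library was left out. Counting only curated Xbp1 transcripts gave nothing new, since both of its transcripts are curated. Beside the block, no fit changed another call of the 10 genes other than those given for Calr, Pdia4, Herpud1 and Xbp1. The counts of the pathway lists under these alternatives were added after seeing the data. Fits without a mouse had 4 libraries, so a lost call there need not depend on the animal. With 3 mice the small changes of Dnajb9 and Sdf2l1 did not pass, which does not show unchanged levels. The SE of Dnajb9 (0.096) was no larger than that of the more abundant Calr (0.098) and Hspa5 (0.136), and the part of depth was not tested.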
